A study of Homo sapiens with 12 samples.

Results

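The 10 genes described here encode the 5 subunits of the transcription factor NF-kB (NFKB1, NFKB2, REL, RELA and RELB), 3 proteins of the IkB type (NFKBIA, NFKBIE and NFKBIZ), and the ubiquitin-editing enzyme A20 (TNFAIP3) with its binding partner TNIP1. They form a list chosen by name, 10 of the 19775 genes that have a probe set of their own on the array. A probe set is a group of short oligonucleotides that together give 1 signal for a transcript. The 10 genes have 21 probe sets, 7 of them having over 1, and each gene was read from the probe set with the highest mean over all 12 arrays. All 10 passed the filter on low signal, among 16099 genes tested.

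The arrays came from 2 established human lines of pancreatic cancer, BxPC-3, which the series calls primary, and AsPC-1, which was isolated from ascites and which the series calls metastatic. BxPC-3 cells given PMA, BxPC-3 cells left untreated, AsPC-1 cells given PMA and AsPC-1 cells left untreated make 4 groups of 3 arrays. PMA, a phorbol ester that activates protein kinase C, was used at 1 µM for 4 h in 0.1% DMSO, and the cells had been kept overnight in 2.5% serum. The labels do not say whether untreated cells also received DMSO. Replicates 1, 2 and 3 were passages 7, 9 and 11 of BxPC-3 and passages 8, 10 and 12 of AsPC-1, and the treated and untreated cells of a replicate shared the passage. The study asked what PMA, used as an inducer of invasion, changes in each line and how the treated lines differ. Each kind of tumour was represented by 1 line, so the spread behind each p-value is that between passages.

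In resting cells, dimers of NF-kB subunits are held in the cytoplasm by IkB proteins such as those of NFKBIA and NFKBIE. Protein kinase C signals through CARD proteins, BCL10 and MALT1 to the IkB kinase complex, IkB is degraded, and the dimers enter the nucleus. RELA, REL and RELB carry a transactivation domain, while NFKB1 and NFKB2 encode precursors that are processed to the subunits p50 and p52. Genes of several subunits and inhibitors, NFKBIA and TNFAIP3 among them, are known as NF-kB targets themselves, which makes a feedback loop. NFKBIZ encodes an IkB protein that acts in the nucleus and is known as a coactivator of some NF-kB targets, and A20 and TNIP1 restrain signalling upstream of the kinase complex.

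The AsPC-1 arrays of passage 8 were closer to each other than to their own groups. AsPC-1 PMA replicate 1 had a mean correlation across genes of 0.921 with its group's other arrays. That was below the 0.964 it had with the untreated array of its passage. This untreated array had a mean of 0.950 with its own group, also below 0.964. The mean of AsPC-1 PMA replicate 1 was the lowest of all arrays, so counts, tests and orders are given with and without that array. The ACTB control probe sets had a 3'/5' ratio of 1.84, 1.99 and 2.02 on the BxPC-3 PMA arrays, against 2.56, 2.95 and 4.14 on the untreated BxPC-3 arrays. The ratio thus moved with treatment in that line, and its part in the BxPC-3 results was not tested. In AsPC-1 the ACTB ratio was 2.12, 2.32 and 1.79 after PMA, against 2.22, 2.27 and 2.24 in untreated cells. The same ratio of the GAPDH control probe sets overlapped between the BxPC-3 groups. It was 1.00, 1.07 and 1.02 after PMA, against 1.04, 1.06 and 1.12 in untreated BxPC-3 cells. All 6 epithelial markers lay over the array's 40th percentile on the 12 arrays. Of 4 leukocyte markers read, CD14 did so on 12 arrays, CD3E on 11, MS4A1 on 2 and PTPRC on 1. Their summed signal was 34.8 to 44.9 in BxPC-3 PMA and 34.8 to 38.4 in BxPC-3 untreated arrays, and 52.0 to 69.1 in AsPC-1 PMA and 59.6 to 92.8 in AsPC-1 untreated arrays. Of 4 endothelial markers, PECAM1 did so on 12, VWF on 4, KDR on 2 and CDH5 on 1. They summed to 51.9 to 78.4 in BxPC-3 PMA and 42.2 to 57.6 in BxPC-3 untreated arrays, and to 33.0 to 55.2 in AsPC-1 PMA and 27.7 to 54.0 in AsPC-1 untreated arrays. Of 6 fibroblast and mesenchymal markers, LUM did so on 12, COL1A1 and DCN on 11, COL3A1 on 7, COL1A2 on 3 and PDGFRB on 1. The part of these markers in the results was not tested.

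The windows before the starts of these genes were searched for the binding motif of NF-kB. The 250 bases before each annotated start were taken from RefSeq (GRCh38.p14), which gave 14 windows for 8 of the 10 genes, RELB and NFKBIE being named only. Both strands were searched for the 10-base kappa B consensus and for the AP-1 site TGANTCA, where N is any base. The consensus had at least 1 match in 7 of the 8 genes, all but RELA, against 11.8% of all 27305 genes in the table, and in 9 of 14 windows, against 9.96% of 35116 windows. The AP-1 site had no match in these windows of the 8 genes (0 of 8), against 8.06% of all genes. The search was chosen after signals and windows had been looked at, and a match describes letters and not a bound site. In the plot of match positions, the matches of NFKB1, REL, NFKBIA and TNFAIP3 lay within 81 bases of the start, and those of NFKBIZ began at bases -223 and -239. The match of TNIP1 began at base -42, and those of NFKB2 began at bases -176, -107, -106, -78 and -21. The second window of NFKB1 held no match.

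The windows of 5 genes are shown, those of NFKB1, REL, NFKBIA and NFKBIZ because their responses differ between the lines once 1 array is left out, and that of TNFAIP3 because it had the largest response in BxPC-3. They are NFKB1 (first start, chr4:102501109-102501358, plus strand), REL (chr2:60881324-60881573, plus strand), NFKBIA (chr14:35404750-35404999, minus strand), NFKBIZ (first start, chr3:101827740-101827989, plus strand) and TNFAIP3 (chr6:137867009-137867258, plus strand). Each reads 5′ to 3′ on the gene's strand, and capitals mark matches to the kappa B consensus.
NFKB1: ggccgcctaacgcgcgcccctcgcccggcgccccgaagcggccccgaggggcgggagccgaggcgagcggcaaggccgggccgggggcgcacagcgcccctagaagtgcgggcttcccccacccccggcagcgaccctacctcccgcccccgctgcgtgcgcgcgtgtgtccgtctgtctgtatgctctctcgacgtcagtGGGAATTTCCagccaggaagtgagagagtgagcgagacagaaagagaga
REL: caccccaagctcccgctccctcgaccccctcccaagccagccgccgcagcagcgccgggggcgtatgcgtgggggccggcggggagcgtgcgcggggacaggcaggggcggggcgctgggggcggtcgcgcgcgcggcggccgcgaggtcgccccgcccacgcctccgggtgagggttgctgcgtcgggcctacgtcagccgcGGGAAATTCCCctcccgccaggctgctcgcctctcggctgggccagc
NFKBIA: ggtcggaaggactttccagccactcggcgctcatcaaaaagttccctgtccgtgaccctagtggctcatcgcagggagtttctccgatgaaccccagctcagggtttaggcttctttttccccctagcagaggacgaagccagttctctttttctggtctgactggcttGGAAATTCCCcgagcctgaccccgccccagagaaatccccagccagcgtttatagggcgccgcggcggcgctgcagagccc
NFKBIZ: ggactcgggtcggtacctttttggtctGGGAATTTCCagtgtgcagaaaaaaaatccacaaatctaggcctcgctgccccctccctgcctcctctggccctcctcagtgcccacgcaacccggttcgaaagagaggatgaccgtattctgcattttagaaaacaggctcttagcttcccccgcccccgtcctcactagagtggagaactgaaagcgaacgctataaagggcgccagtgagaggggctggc
TNFAIP3: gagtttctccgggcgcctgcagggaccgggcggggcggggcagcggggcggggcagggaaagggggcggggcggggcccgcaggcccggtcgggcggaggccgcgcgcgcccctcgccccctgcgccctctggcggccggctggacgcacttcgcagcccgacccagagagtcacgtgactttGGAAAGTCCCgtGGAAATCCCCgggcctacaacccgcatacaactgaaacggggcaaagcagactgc
The first windows of NFKB1 and NFKBIZ share the match GGGAATTTCC, and a window each of NFKB2 and TNIP1 share GGGACTTTCC. TNFAIP3 holds 2 separate matches, GGAAAGTCCC and GGAAATCCCC. The first of them is GGGACTTTCC read on the other strand, the match of NFKB2 and TNIP1. The 11 capitals of REL hold 2 overlapping matches, GGGAAATTCC and GGAAATTCCC, of which NFKBIA holds the second. GGAAATTCCC is GGGAATTTCC read on the other strand, so NFKB1, NFKBIZ, NFKBIA and REL hold the same letters on either strand.

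**Figure D1:**
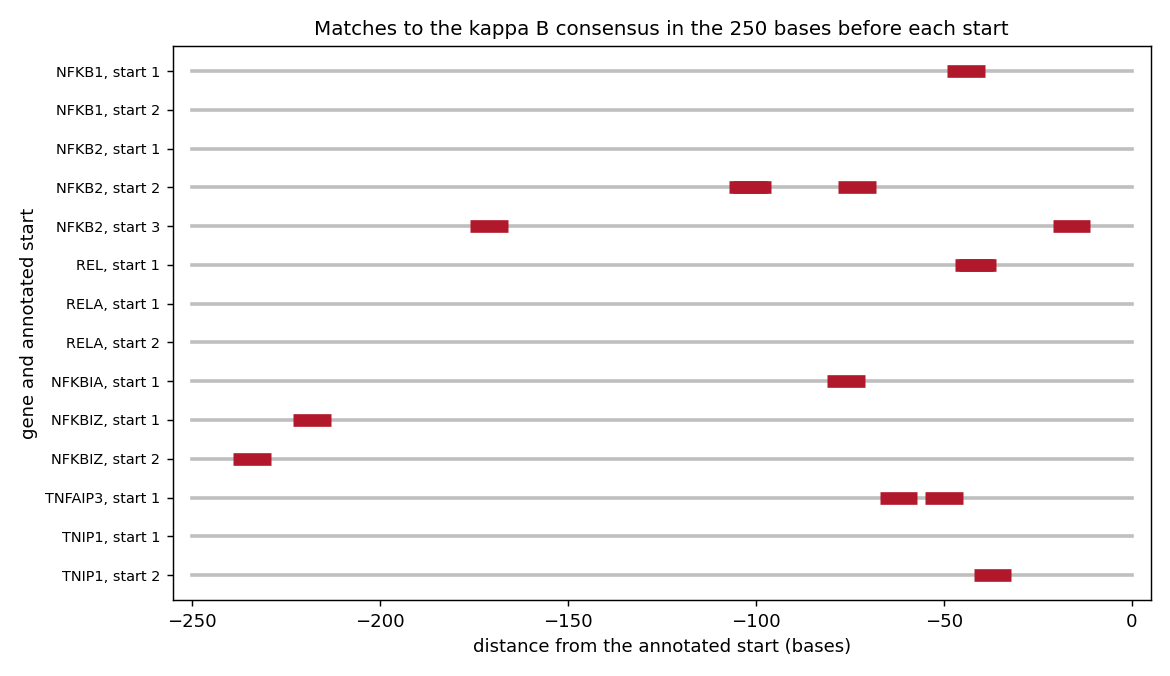
Positions of matches to the kappa B consensus (red bars, either strand) in the 250 bases before each annotated start of 8 genes, with distance from the start in bases on the x axis and 1 line for each of 14 windows. Of the windows 9 hold a match, and both RELA windows hold none.

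In BxPC-3 cells 4 of the 10 genes rose after PMA and 0 fell. RELB, NFKBIE, NFKBIZ and TNFAIP3 passed the test, where 2.52% of all tested genes were called higher and 5.82% were called in either direction. The median change of the 10 genes was 1.21 on the log2(signal + 3) scale, beside 0.00 for all genes tested. The PMA and untreated arrays did not overlap for 9 of the 10 genes, all but REL, where 38.9% of tested genes had groups apart (17% with PMA higher). Fewer cells of a type and less RNA per cell cannot be told apart in such bulk RNA. A log2 change understates the change of dim genes because 3 is added to each signal.

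Among the subunits, RELB, an activating partner of p52, had signals of 142, 124 and 108 after PMA, against 57.3, 43.3 and 41.8 in untreated BxPC-3 cells. Its highest untreated array lay below its lowest PMA array. RELB rose by 1.34 ± 0.24 on the log2 scale (SE, adjusted p = 0.00564), a call kept under all 22 alternatives (adjusted p 4.25e-04 to 0.0375). NFKB1, the p105 and p50 gene, had 1541, 1348 and 1417 after PMA, against 614, 728 and 779 in untreated BxPC-3 cells. Every PMA array was above every untreated one, but the change of 1.02 ± 0.35 missed the threshold (adjusted p = 0.104). Leaving out AsPC-1 PMA replicate 1 gave an adjusted p of 9.32e-05, the passage as a block gave 0.0489, and all its alternatives gave 9.32e-05 to 0.262.

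NFKB2, the p100 and p52 gene, was dim, with 67.3, 70.7 and 59.3 after PMA, against 24.0, 35.3 and 29.9 in untreated BxPC-3 cells. The groups were apart, at 1.08 ± 0.55 (adjusted p = 0.285, and 0.0152 without AsPC-1 PMA replicate 1). RELA, the activating subunit of the most common dimer, had 416, 392 and 417 after PMA, against 328, 285 and 246 in untreated BxPC-3 cells. This was the smallest change among the 9 genes whose groups were apart, 0.52 ± 0.18 (adjusted p = 0.11, and 0.0198 without that array). REL, the subunit c-Rel known best from lymphoid cells, had 239.9, 314 and 241 after PMA, against 239.7, 252 and 307 in untreated BxPC-3 cells. Its groups overlapped, with a change of -0.01 ± 0.51 (adjusted p = 0.996, 95% interval -1.11 to 1.09), and its sign turned under median centring (0.12) and quantile normalization (0.12).

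The signals of the 3 IkB genes were higher on every PMA array of BxPC-3 than on every untreated one. NFKBIZ had 1359.6, 1623 and 1464 after PMA, against 382, 431 and 532 in untreated BxPC-3 cells, and it rose by 1.73 ± 0.31 (adjusted p = 0.00575, 3.31-fold), a call kept under all 22 alternatives. Its probe set 223217_s_at gave 1.49 (adjusted p = 0.0872). NFKBIE had 131, 109 and 157 after PMA, against 51.1, 50.4 and 34.3 in untreated BxPC-3 cells. It rose by 1.49 ± 0.34 (adjusted p = 0.0213), a call lost when any of 5 BxPC-3 arrays was left out: untreated replicates 1, 2 or 3 (1.59, 1.58 and 1.32) and PMA replicates 1 or 3 (1.49 and 1.37), with adjusted p up to 0.114. NFKBIA, the inhibitor resynthesised soon after activation, had 1156, 1206 and 1139 after PMA, against 385, 415 and 479.9 in untreated BxPC-3 cells. Those groups lay far apart within the line, yet 1.45 ± 0.56 did not pass (adjusted p = 0.151), in a fit whose spread is shared with AsPC-1. NFKBIA passed once that line's PMA replicate 1 was left out (adjusted p = 2.36e-04), and also under the passage block (adjusted p = 0.0204).

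TNFAIP3 had the largest response of the 10 in BxPC-3. Its signals were 1603, 1345 and 1786 after PMA, against 267, 207 and 166 in untreated BxPC-3 cells. It rose by 2.89 ± 0.53 (7.39-fold, adjusted p = 0.00726), kept the call under all 22 alternatives, and ranked 28th from the top among the changes of 16099 genes. Its other probe set, 202643_s_at, rose as well (3.29, adjusted p = 0.0113). TNIP1, which binds A20 and brings it to its substrates, had 600.1, 421 and 539 after PMA, against 277, 300.4 and 272 in untreated BxPC-3 cells. The groups were apart, at 0.86 ± 0.27 (adjusted p = 0.0798), and leaving out AsPC-1 PMA replicate 1 or quantile normalization brought the call (adjusted p = 0.00305 and 0.0386). In all, 9 of the 10 genes rose in BxPC-3 without that array, where 5.7% of tested genes were called higher, and 6 rose with the passage as a block, where 4.16% were. The same count of 9 came from the 6 BxPC-3 arrays alone, where 8.5% were called higher. REL was the exception in both, and NFKB1 and NFKBIA were the genes added by the block. For the 4 genes called with all 12 arrays, RELB, NFKBIE, NFKBIZ and TNFAIP3, the adjusted p without AsPC-1 PMA replicate 1 was 4.25e-04, 6.67e-04, 1.86e-05 and 1.28e-05, in that order.

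**Figure D2:**
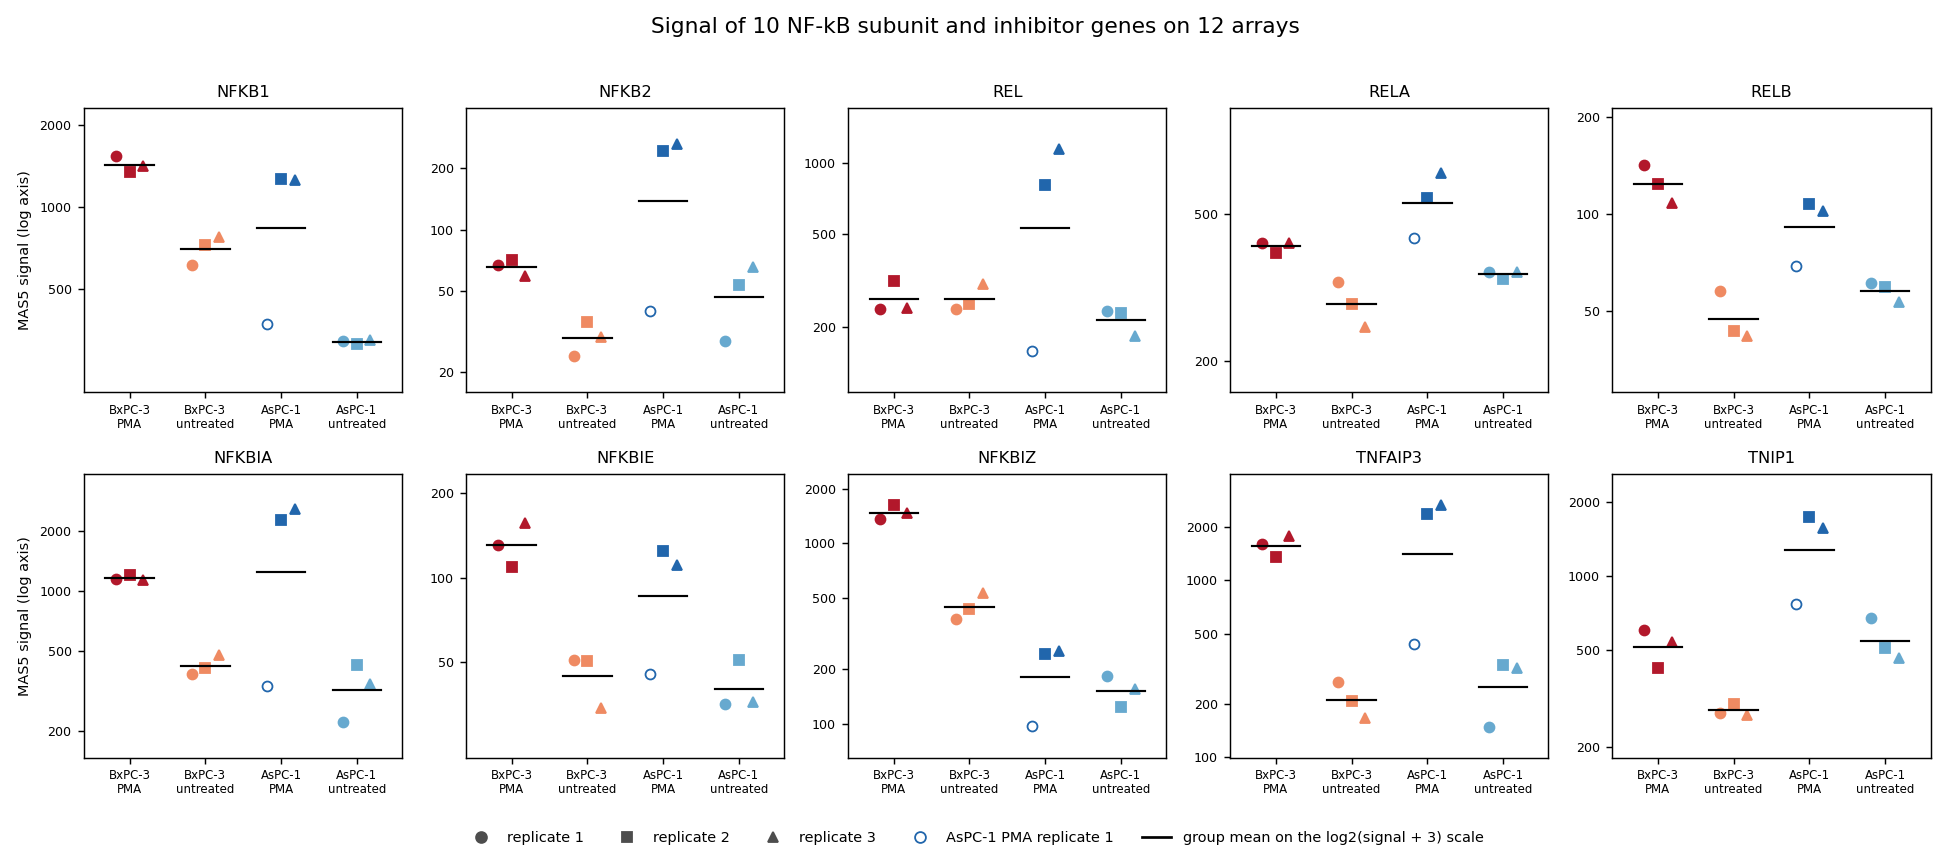
MAS5 signal (y axis, log scale) of the 10 genes on the 12 arrays, with BxPC-3 in reds and AsPC-1 in blues, PMA left of untreated in each line, a marker shape for each replicate and a bar at the mean of log2(signal + 3). AsPC-1 PMA replicate 1 (open circle) lies below the other AsPC-1 PMA arrays in all 10 panels, as for NFKBIA (335 against 2274 and 2581).

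In AsPC-1 cells 2 of the 10 genes rose after PMA and 0 fell, TNFAIP3 and TNIP1, where 1.24% of tested genes were called higher and 1.96% in either direction. The median change of the 10 genes was 1.26, beside -0.10 for all genes tested. The groups did not overlap for 5 genes, NFKB1, RELA, RELB, TNFAIP3 and TNIP1, where 14.4% of tested genes had groups apart (6.06% with PMA higher). Without AsPC-1 PMA replicate 1, all 10 genes rose, where 6.09% of tested genes were called higher, and the median change was 1.79. With the passage as a block 5 rose, where 2.79% were, NFKB1, NFKB2 and NFKBIA joining TNFAIP3 and TNIP1. Fits without replicate 1 leave 2 AsPC-1 PMA arrays. They keep the untreated array of passage 8, so the passages no longer match. Their AsPC-1 changes of TNFAIP3, NFKBIA and NFKB2 were 3.31, 2.91 and 2.36. These exceed the largest change within an AsPC-1 passage, 3.05, 2.89 and 2.11, and those of the other members do not. A limma fit on the 6 AsPC-1 arrays called 0 of the 10 members higher and 0% of all tested genes, with 6 members higher at an unadjusted p under 0.05, where 4.27% of tested genes were. With all 12 arrays 9 members were higher at such a p, where 6.43% of tested genes were.

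TNFAIP3 had 439, 2373 and 2669 after PMA, against 149, 331 and 319 in untreated AsPC-1 cells. All PMA arrays were above all untreated ones, with replicate 1 well under the other PMA arrays. TNFAIP3 rose by 2.47 ± 0.53 (SE, adjusted p = 0.0342), and by 3.31 ± 0.29 without PMA replicate 1 (adjusted p = 5.64e-06). Leaving out any of the other 11 arrays ended that call, with changes of 2.01 (without PMA replicate 3) to 2.67 (without untreated replicate 2) and adjusted p up to 0.173. So did dropping the intensity trend (adjusted p = 0.0875) and the mean of its probe sets (adjusted p = 0.0506). Its other probe set, 202643_s_at, gave 2.80 and missed the threshold (adjusted p = 0.0619). TNIP1 had 769.8, 1741 and 1563 after PMA, against 672, 507 and 463 in untreated AsPC-1 cells. It rose by 1.24 ± 0.27 (adjusted p = 0.0352), and by 1.61 without PMA replicate 1. That call was lost in 9 of the 12 fits that left out 1 array, all but those without AsPC-1 PMA replicate 1, untreated AsPC-1 replicate 1 and BxPC-3 PMA replicate 2, with changes of 1.02 to 1.24 and adjusted p up to 0.18. For TNIP1 the mean of its probe sets gave 0.49 (adjusted p = 0.569). The other TNIP1 probe set, 243423_at, was above the array's 40th percentile on 6 of 12 arrays and had the opposite sign (-0.25, adjusted p = 0.928).

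Among the IkB genes, NFKBIA had 335, 2274 and 2581 after PMA, against 221, 427 and 345 in untreated AsPC-1 cells. PMA replicate 1 lay within the untreated range, and replicates 2 and 3 exceeded the highest untreated array several times over. The change was 1.96 ± 0.56 (adjusted p = 0.0982, or 0.00896 under the passage block), and 2.91 ± 0.21 without PMA replicate 1 (adjusted p = 1.08e-06). NFKBIE had 45.6, 124 and 111 after PMA, against 35.6, 50.9 and 36.1 in untreated AsPC-1 cells, a change of 1.04 ± 0.34 (adjusted p = 0.141), and 1.48 without that array (adjusted p = 0.00101). NFKBIZ had 97.1, 244 and 253 after PMA, against 184, 124 and 155 in untreated AsPC-1 cells. Here replicate 1 was below every untreated array, and the change was 0.25 ± 0.31 (adjusted p = 0.745), or 0.69 without replicate 1 (adjusted p = 0.0167). Its probe set 223217_s_at gave -0.40, the opposite sign (adjusted p = 0.781).

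Among the subunits in AsPC-1, REL had 158, 805 and 1144 after PMA, against 234, 229 and 184 in untreated AsPC-1 cells. PMA replicates 2 and 3 were the highest of the 12 arrays for this probe set, and replicate 1 was the lowest. The change was 1.28 ± 0.51 (adjusted p = 0.221), and 2.14 ± 0.20 without replicate 1 (adjusted p = 8.75e-06). NFKB1 had 373, 1269 and 1257 after PMA, against 322, 313 and 325 in untreated AsPC-1 cells, with a change of 1.39 ± 0.35 (adjusted p = 0.0621, 0.0233 with the block). NFKB2 had 40.04, 242 and 262 after PMA, against 28.5, 53.7 and 65.3 in untreated AsPC-1 cells, with 1.51 ± 0.55 (adjusted p = 0.18, 0.0236 with the block). Replicate 1 was above all untreated arrays for NFKB1 but within their range for NFKB2. Without it both precursor genes rose, by 1.97 and 2.36 (adjusted p = 5.21e-07 and 9.94e-05). RELA had 429, 552 and 643 after PMA, against 348, 332 and 347 in untreated AsPC-1 cells, with 0.64 ± 0.18 (adjusted p = 0.0937). RELB had 68.6, 107 and 102 after PMA, against 60.8, 59.3 and 53.0 in untreated AsPC-1 cells, with 0.63 ± 0.24 (adjusted p = 0.191). Both had all PMA arrays above all untreated ones, and both passed without replicate 1, at 0.79 and 0.83 (adjusted p = 0.00203 and 0.0148).

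**Figure D3:**
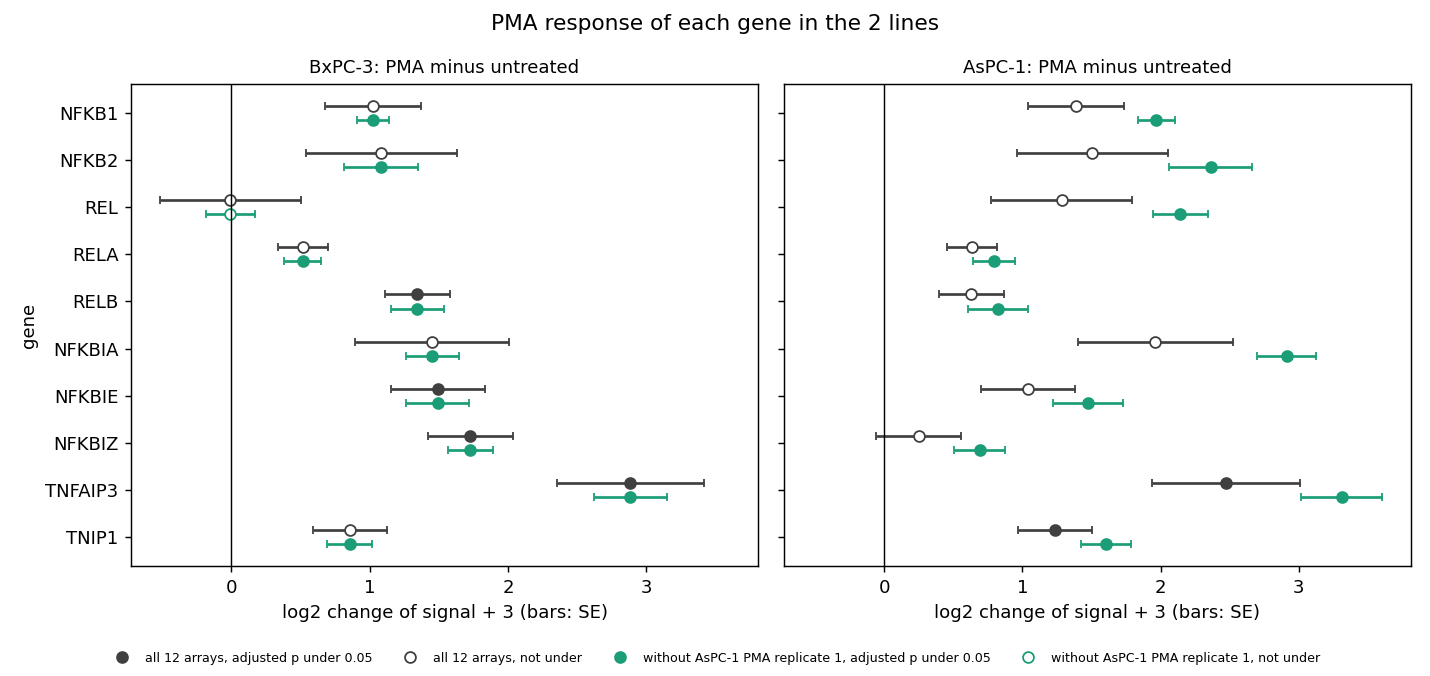
Log2 change of signal + 3 after PMA (x axis, PMA minus untreated, bars show the SE) of the 10 genes in BxPC-3 (left) and AsPC-1 (right), with all 12 arrays (grey) and without AsPC-1 PMA replicate 1 (green). Filled points have an adjusted p under 0.05, which holds for 4 and 2 genes with all arrays and for 9 and 10 genes without that array.

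Passage by passage, the differences of the 10 genes were smaller in AsPC-1 replicate 1 than in its other replicates. In passage 8 (replicate 1) 8 of 10 genes were higher after PMA than in the untreated cells of the passage and 1 of them, TNFAIP3, by over 1 on the log2 scale, with a median of 0.25. In passages 10 and 12 all 10 were higher, 7 by over 1, with medians of 1.79 and 1.85. BxPC-3 passages 7, 9 and 11 had 10, 10 and 9 genes higher and medians of 1.32, 1.01 and 1.11. All tested genes were not counted by passage, so these counts cannot be set against a share. REL (-0.56) and NFKBIZ (-0.90) were the genes with a lower signal after PMA in passage 8, and REL (-0.34) was that gene in passage 11. TNFAIP3 had the largest change of the 10 in each of the 6 passages, at 2.57, 2.68 and 3.40 in BxPC-3 and 1.54, 2.83 and 3.05 in AsPC-1.

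**Figure D4:**
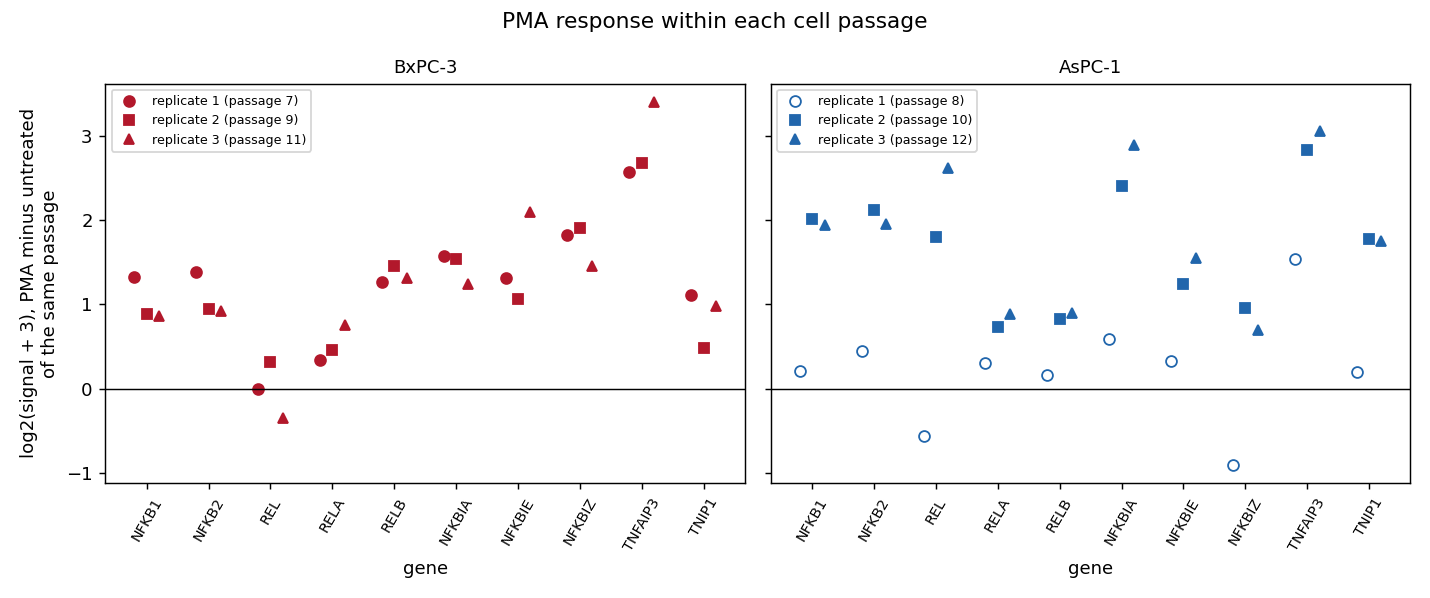
Difference of log2(signal + 3), PMA minus untreated of the same passage (y axis), for each of the 10 genes in BxPC-3 (left) and AsPC-1 (right), with a marker for each replicate. The open circles of AsPC-1 passage 8 lie below both other AsPC-1 passages for all 10 genes, at a median of 0.25 against 1.79 and 1.85.

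The difference of the PMA responses, BxPC-3 minus AsPC-1, was tested directly. With all 12 arrays limma called 0 of the 10 genes, with 1 gene, NFKBIZ, at an unadjusted p under 0.05, where 0.491% of tested genes were called and 8.91% had such a p. For NFKBIZ the difference was 1.48 ± 0.43, the larger value being that of BxPC-3 (adjusted p = 0.258, 95% interval 0.55 to 2.41). For REL it was -1.29 ± 0.72 (adjusted p = 0.661, interval -2.85 to 0.26), and the intervals of the other 8 genes all held 0. Without AsPC-1 PMA replicate 1, 4 genes were called, where 4.43% of tested genes were, and with the passage as a block 0 were called, where 0.783% were. Without that array NFKBIZ responded more in BxPC-3, by 1.03 ± 0.25 (adjusted p = 0.0324). NFKB1 (-0.95, adjusted p = 0.00941), NFKBIA (-1.46, adjusted p = 0.0121) and REL (-2.15 ± 0.27, adjusted p = 5.67e-04) responded more in AsPC-1. That fit kept the untreated AsPC-1 array of passage 8, where NFKBIA had its lowest AsPC-1 signal (221). TNFAIP3 showed no difference past the threshold in either fit, at 0.41 ± 0.75 with all arrays and -0.42 ± 0.39 without replicate 1, so its sign turned with that array. RELB (0.71, adjusted p = 0.566), NFKBIE (0.45, 0.866), NFKB2 (-0.43, 0.93), RELA (-0.12, 0.941) and TNIP1 (-0.38, 0.852) missed the threshold in both fits, as these values with all arrays and adjusted p of 0.0947 to 0.987 without replicate 1 show.

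The REL contrast was looked at on all 5 REL probe sets. On 228812_at the signals were 174, 202 and 167 after PMA, against 149, 177 and 189.8 in untreated BxPC-3 cells. On the same probe set they were 217, 766 and 922 after PMA, against 251, 144 and 146 in untreated AsPC-1 cells. On 206036_s_at they were 100.1, 108 and 96.7 after PMA, lower without overlap than 124, 134 and 181 in untreated BxPC-3 cells. On that probe set they were 52.8, 392 and 443 after PMA, against 79.9, 71.5 and 67.4 in untreated AsPC-1 cells. On both, as on the main probe set 235242_at, AsPC-1 PMA replicates 2 and 3 were the highest of the 12 arrays and BxPC-3 had no change past the threshold, with values of 0.07 and -0.50 in BxPC-3 and 1.60 and 1.50 in AsPC-1 (adjusted p = 0.966, 0.761, 0.111 and 0.288). The probe set 239486_at had 1.16, 68.0 and 119.6 after PMA, against 10.8, 11.6 and 23.1 in untreated AsPC-1 cells, again with PMA replicates 2 and 3 the highest. The last, 206035_at, was over the 40th percentile on 7 of 12 arrays and had 5.83, 31.1 and 26.8 after PMA, against 12.7, 5.34 and 11.6 in untreated AsPC-1 cells. Replicates 2 and 3 were again the highest, but its value had the opposite sign for the difference of responses (0.13, adjusted p = 0.988). Different probe sets of a gene share the arrays and do not add replicates.

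**Figure D5:**
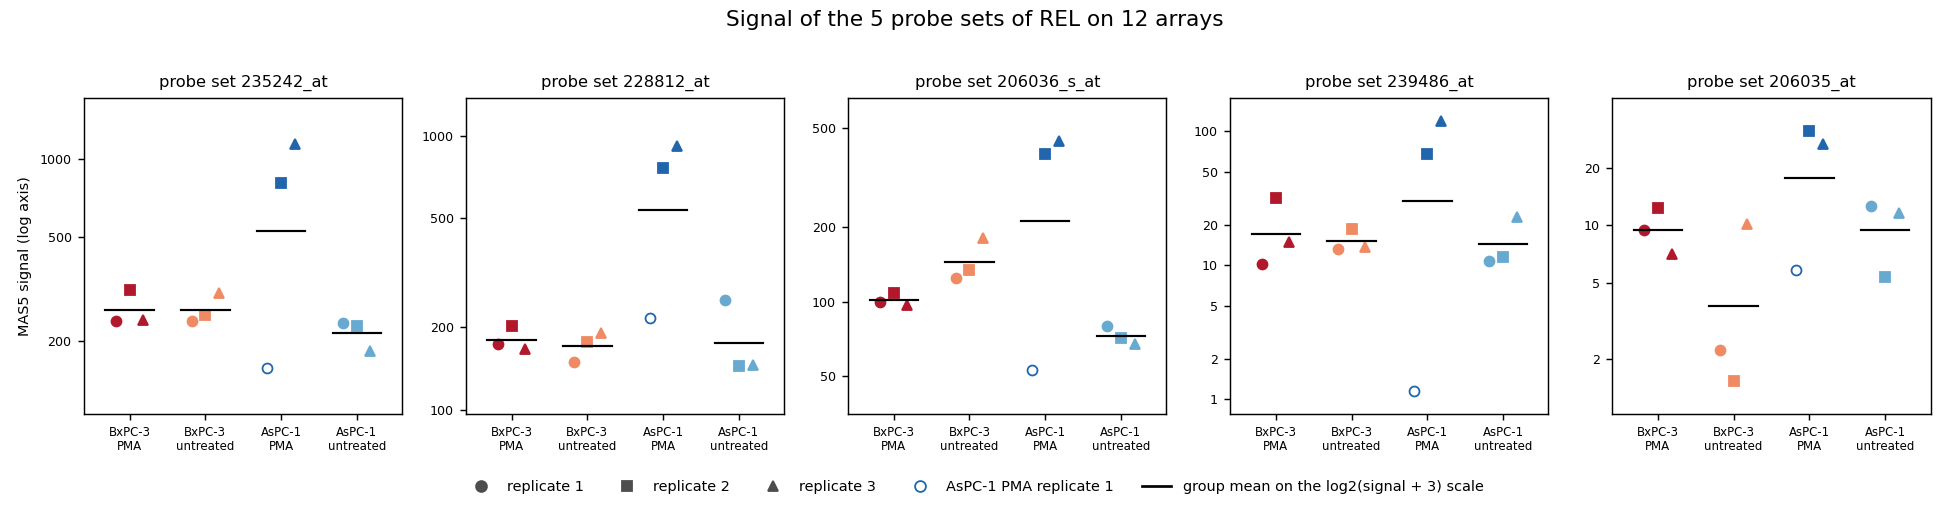
MAS5 signal (y axis, log scale) on the 5 probe sets of REL, with the 12 arrays in 4 groups, PMA left of untreated in each line, and a bar at the mean of log2(signal + 3). On all 5 panels AsPC-1 PMA replicates 2 and 3 are the highest arrays, as with 805 and 1144 on 235242_at.

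After PMA, BxPC-3 and AsPC-1 differed in 2 of the 10 genes, where 33.5% of tested genes were called. The groups of 5 genes did not overlap, where 43.4% of tested genes had groups apart. Neither share of these genes was thus far from that of all genes. NFKBIZ was higher in BxPC-3 PMA cells by 3.00 ± 0.31 (adjusted p = 4.98e-06, 8.01-fold), under all 22 alternatives. TNIP1 was lower (log2 difference -1.31 ± 0.27, adjusted p = 0.0018), and -0.94 with the mean of its probe sets (adjusted p = 0.0822). REL was not called from its main probe set (adjusted p = 0.158), but on 228812_at it was lower in BxPC-3 PMA cells with all 12 arrays (-1.56, adjusted p = 0.0159). Without AsPC-1 PMA replicate 1, 6 genes were called, where 40.6% of tested genes were. NFKBIZ was higher in BxPC-3, and TNIP1, NFKB2 (-1.90), REL (-1.86), RELA (-0.54) and NFKBIA (-1.05) were lower. NFKB1 passed when AsPC-1 PMA replicate 2 or 3 was left out (1.06 and 1.05), against 0.77 ± 0.35 with all arrays (adjusted p = 0.112). Without AsPC-1 PMA replicate 1 the NFKB1 difference was 0.18 ± 0.13 and not called (adjusted p = 0.308).

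In untreated cells 3 of the 10 genes differed between the lines, where 32.4% of tested genes did, and 5 had groups apart, where 50.6% did. NFKBIZ (1.52 ± 0.31, adjusted p = 0.00158) and NFKB1 (1.13 ± 0.35, adjusted p = 0.0233) were higher in untreated BxPC-3 than in untreated AsPC-1, and TNIP1 was lower (-0.93 ± 0.27, adjusted p = 0.0169). The NFKBIZ call held under all 22 alternatives (adjusted p up to 0.0331), but its probe set 223217_s_at gave 0.51 (adjusted p = 0.491). The NFKB1 call was lost under median centring (1.09, adjusted p = 0.0678) and in 5 fits, without untreated AsPC-1 replicate 1, 2 or 3 and without untreated BxPC-3 replicate 2 or 3, with changes of 1.05 to 1.14. The TNIP1 call was lost without untreated AsPC-1 replicate 1 (-0.77) and without untreated BxPC-3 replicate 1 (-0.91) or 3 (-0.90), and with the mean of its probe sets (-0.71). The summed signal of 6 fibroblast and mesenchymal markers was 145 to 232 on the BxPC-3 arrays and 1353 to 3426 on the AsPC-1 arrays, where LUM made up most of it, and its part in the differences between lines was not tested.

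By group mean the levels took different orders. NFKBIZ ran from AsPC-1 untreated through AsPC-1 PMA and BxPC-3 untreated to BxPC-3 PMA, with overlap between the AsPC-1 groups alone. TNIP1 ran from BxPC-3 untreated through BxPC-3 PMA and AsPC-1 untreated to AsPC-1 PMA, with overlap in the middle step. NFKB1 ran from AsPC-1 untreated through BxPC-3 untreated and AsPC-1 PMA to BxPC-3 PMA, again overlapping in the middle step. RELA had no overlap at any step of the order BxPC-3 untreated, AsPC-1 untreated, BxPC-3 PMA, AsPC-1 PMA. RELB overlapped between the untreated groups, which were below AsPC-1 PMA and then BxPC-3 PMA. TNFAIP3 overlapped between the untreated groups and between the PMA groups, but not between an untreated and a PMA group that stood next to each other. NFKBIA was apart between BxPC-3 untreated and BxPC-3 PMA and overlapped at both other steps. NFKB2 and NFKBIE overlapped at all 3 steps. REL was lowest in AsPC-1 untreated, apart from BxPC-3 PMA, and overlapped at the steps above. Without AsPC-1 PMA replicate 1 the order of the means changed for TNFAIP3 alone, whose AsPC-1 PMA group then stood above BxPC-3 PMA without overlap. The overlaps next to the AsPC-1 PMA group also went for NFKB1, NFKB2, REL, NFKBIA and NFKBIZ and, on its lower side, for NFKBIE.

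Genes elsewhere in the pathway were read from 4 further lists. Of all tested genes 2.52% were called higher in BxPC-3 and 1.24% in AsPC-1, with medians of 0.00 and -0.10. In either direction 5.82% and 1.96% were called. Without AsPC-1 PMA replicate 1, 5.7% were called higher in BxPC-3 and 6.09% in AsPC-1. Of 19 genes from the CARD, BCL10 and MALT1 complex to the IkB kinases 16 were tested. In BxPC-3 limma called 0 of them (median 0.17), and 4 were higher at an unadjusted p under 0.05. The share of all tested genes at such a p was not counted in BxPC-3, so the 4 cannot be set against it. MALT1 was called in BxPC-3 without AsPC-1 PMA replicate 1 (0.78, adjusted p = 0.0183). In AsPC-1, 2 of the 16 rose (median 0.06), the TAK1-binding adaptors TAB2 (0.72, adjusted p = 0.0339) and TAB3 (0.88, adjusted p = 0.0335), and BCL10 also without replicate 1 (0.78, adjusted p = 0.0046). Of 8 genes of the non-canonical branch 6 were tested, and limma called 0 in either line (medians 0.38 and 0.38). At an unadjusted p under 0.05, 1 was higher in each line, where 6.43% of all tested genes were in AsPC-1. Without that array 3 of the 6 rose in AsPC-1, the kinase MAP3K14 (1.59), the receptor TNFRSF12A (1.37) and the ubiquitin ligase BIRC2 (0.70), and the receptor LTBR fell (-0.58). Genes named here for a call without that array were picked after their values were seen.

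Of 16 genes for other IkB proteins and negative regulators 12 were tested, of which 0 rose and 1 fell in BxPC-3 (median 0.24), the linear-ubiquitin hydrolase OTULIN (-1.25, adjusted p = 0.00779). In AsPC-1, 1 rose and 0 fell (median 0.16), the ubiquitin ligase ITCH (0.82, adjusted p = 0.0279). Without AsPC-1 PMA replicate 1, NFKBID (0.72) and TNIP2 (0.86) also rose in BxPC-3, and CYLD (2.10), NFKBIB (1.42) and TNIP2 (0.97) in AsPC-1. Among 16 tested of 18 effector genes of NF-kB, 4 rose in BxPC-3 (median 1.62), where 2.52% of all tested genes were called higher. In AsPC-1, 6 rose (median 2.10), where 1.24% were, and 0 fell in either line. Those that rose in BxPC-3 were the interleukin IL1B (2.34), PTGS2 (2.16), BCL2A1 (3.56) and TRAF1 (1.79). In AsPC-1 they were IL1B (2.50), SOD2 (2.03), CXCL8 (5.03), CXCL1 (3.81), CXCL2 (4.28) and CXCL3 (4.21). TRAF1, CXCL1, CXCL2 and CXCL3 were likewise picked after their values were seen. Leaving out AsPC-1 PMA replicate 1 gave 11 higher and 1 lower in BxPC-3, where 5.7% of all tested genes were called higher. It gave 12 higher in AsPC-1, where 6.09% were. The response of PTGS2, the inducible cyclooxygenase gene, was larger in BxPC-3 than in AsPC-1 (2.32, adjusted p = 0.043). It was the only effector gene called for the difference of responses, where 0.491% of tested genes were. The median difference of the effector genes was -1.24, towards AsPC-1, beside 0.07 for all genes tested. Without AsPC-1 PMA replicate 1, 1 effector gene responded more in BxPC-3 and 7 in AsPC-1, where 4.43% of tested genes were called.

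For each member called after PMA in at least 1 line, the 2 tested genes with the nearest pattern were taken by the root mean square difference of log2 values over the 12 arrays, after each gene's own mean was removed. RELB was nearest to MFHAS1 (0.155) and CYTH1 (0.201), where the median over all genes was 0.81. NFKBIE was nearest to LUZP1 (0.238) and ANKRD37 (0.264), with a median of 0.972 over all genes. NFKBIZ was nearest to the growth factor gene VEGFA (0.334) and RND3 (0.356), with a median of 1.44. TNFAIP3 lay nearest to the AP-1 subunit gene FOSL1 (0.46) and ERRFI1 (0.469), with a median of 1.64, and TNIP1 lay nearest to IER2 (0.213) and the ERK phosphatase gene DUSP6 (0.221), with a median of 0.999. Without AsPC-1 PMA replicate 1 the nearest pair stayed the same for NFKBIZ. Without that array RELB had MFHAS1 and PHC2, NFKBIE had LUZP1 and IL6ST, TNFAIP3 had CCDC85B and TMEM217, and TNIP1 had IER3 and DUSP6. These distances describe the arrays and carry no test.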

How the data were processed

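The deposited file holds 1 signal intensity per probe set and array (54675 by 12), linear and made by the authors with MAS5 per the submitters' processing notes; its version is not given. Each signal was taken as log2(signal + 3), unscaled. Left out were 62 control probe sets and those without exactly 1 symbol in the platform annotation, which left 41091 (41037 found in RefSeq by Entrez ID, 0 symbols changed). A gene was tested if at least 3 arrays had it over their own 40th percentile, which was 8.18 to 10.2. Probe sets whose names hold "_s" can also hit related transcripts. Detection calls were not used here, so low signals were not set against background, and the number of arrays limits the precision.

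limma 3.58.1 in R 4.3.3 fitted the 4 group means to all 12 arrays (eBayes with trend, 8 residual degrees of freedom), so a gene has 1 estimate of spread for both lines. Its two-sided p-values were adjusted by Benjamini-Hochberg over the 16099 tested genes, with a threshold of 0.05. A permutation of 3 arrays against 3 could reach p = 0.1 at the lowest. Alternatives changed the scaling (quantile, median centring), the pseudocount (1, 10), the filter (none, 60th percentile), the probe sets (mean of all, each other one), the trend, the arrays fitted (those compared, or all but 1), the threshold (2-fold minimum) or added a replicate block. The labels give treated and untreated arrays of 1 number in a line the same passage, which pairs them. Over genes, their deviations gave r = 0.411, 0.206 and 0.157 for the AsPC-1 pairs but -0.054, -0.126 and -0.059 for the BxPC-3 pairs.

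All 10 members are named. Each of 4 other pathway lists gives up to 3 called genes of lowest p per direction and PMA comparison, and each member called after PMA gives its 2 nearest genes. Members and lists were chosen with earlier results of these data known, and narrower kappa B motifs were looked at before the consensus was settled on. The fit was tested on simulated data. Matplotlib 3.10.9 (Python 3.11.15) drew the plots.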

Additional observations from a re-analysis of the deposited data

How the results depend on the processing

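Of 1145 member values recomputed under an alternative, 1031 kept their direction and side of the threshold, 47 lost the call, 35 gained it and 32 changed sign. With any 1 array left out, 3 to 9 members were called for PMA in BxPC-3 and 0 to 10 in AsPC-1. For the difference of responses 0 to 4 were called, 2 to 6 between lines after PMA and 1 to 3 between untreated lines. Among these fits, shares of all tested genes were counted only without AsPC-1 PMA replicate 1, as given above. The other counts, and those with the mean of all probe sets, cannot be set against a share. With all 12 arrays 33.5% of tested genes were called between lines after PMA and 32.4% between untreated lines. The highest counts after PMA came without AsPC-1 PMA replicate 1, and the AsPC-1 count was 0 in 9 of the fits that left out 1 array. The AsPC-1 count was also 0 with the mean of all probe sets, without the trend, and with the AsPC-1 arrays alone, where 0 of 16099 genes passed. With the passage as a replicate block it was 5, and the block changed no other call than those given above. Between lines the block on the shared number left the counts at 2 and 3, and pairs of that number correlated at -0.0765 to 0.0263. With the BxPC-3 arrays alone 9 members rose, and between lines after PMA 1 was called with the mean of all probe sets. The difference of responses already used all 12 arrays and has no fit on fewer groups.

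Median centring shifted the changes by 0.13 in BxPC-3 and 0.22 in AsPC-1. For REL after PMA in BxPC-3, the change was 0.12 under quantile normalization, median centring and the mean of probe sets, -0.14 to 0.10 with 1 array left out, and 0.87, 0.072 and 0.16 on 206035_at, 228812_at and 239486_at. REL also turned on 206035_at for the difference of responses (0.13) and between untreated lines (-0.87), and on 228812_at between untreated lines (-0.026). With 1 array left out, the difference of responses ranged from -1.28 to 0.031 for NFKB2, from -1.46 to 0.00756 for NFKBIA, from -0.28 to 0.0132 for RELA and from -0.42 to 0.87 for TNFAIP3. After PMA the line difference ranged from -1.05 to 0.42 for NFKBIA, which was 0.020 under quantile normalization, and from -0.68 to 0.62 for TNFAIP3. With the mean of probe sets NFKBIZ was -0.077 for PMA in AsPC-1 (-0.40 on 223217_s_at), the NFKB2 difference of responses was 0.65, and untreated NFKBIA was -0.34. The NFKB2 difference was 0.45 on 209636_at and 1.93 on 211524_at, which also gave -1.24 for PMA in AsPC-1 and 0.85 between lines after PMA. However, 211524_at was over the array's 40th percentile on 1 array alone, and it is part of the NFKB2 mean of probe sets. On 231699_at, over that percentile on 4 arrays and part of the NFKBIA mean, NFKBIA gave 0.16 for the difference and -1.08 in untreated lines. On 243423_at, over that percentile on 6 arrays, TNIP1 gave -0.32 in BxPC-3 and -0.25 in AsPC-1 after PMA. The cause of these turns was not tested. The orders of levels and nearest genes without AsPC-1 PMA replicate 1 were added after seeing the data.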
